A study of Mus musculus with 40 samples.

Results

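The jejunum of wild-type mice was compared between day 7 and day 3 after doxorubicin, as a direct contrast of the 5 arrays labelled WT doxorubicin day 7 (WT-Dox7) with the 5 labelled WT doxorubicin day 3 (WT-Dox3). These 10 arrays, picked by title alone, belong to a series of 40, with 5 mice in each of 8 groups. The animals were female Sftpd+/+ littermates of Sftpd-/- mice, 10 to 12 weeks of age, on a C57BL/6N background and bred in-house. Each received 1 intraperitoneal dose of doxorubicin at 20 mg/kg on day 0. The references were 5 WT mice given isotonic saline and killed on day 7 (WT-NaCl7) and 5 killed on day 3 (WT-NaCl3). Sftpd-/- mice given the same dose (KO-Dox7 and KO-Dox3, 5 each) entered 1 comparison of the 2 genotypes. All 40 arrays, with those of KO mice given saline, also set the spread used in every limma test, including the WT contrast. Each mouse gave 1 array of jejunum, the middle segment of the small intestine, and was killed at 1 time only, so day 7 and day 3 are different animals. Some doxorubicin mice were ended early for weight loss, and day 7 therefore describes those that reached it.

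Doxorubicin intercalates into DNA and traps topoisomerase II on broken strands, and the rapidly dividing crypt cells of the small intestine are among the cells it harms first. The loss of crypt cells starves the villus of new enterocytes, the absorptive cells, until surviving crypt cells divide and refill it. In mouse intestine this phase of regrowth is known for p53 target genes, ligands of the epidermal growth factor receptor, wound-type epithelial genes and inflammatory signals, followed by the return of genes of mature enterocytes.

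The values are deposited log2 signals, in which a difference of 1 is a doubling. Of the 23 background probe sets the highest had a signal of 6.99 and the mean was 3.45, so a signal under 6.99 is not clearly above background and a fall onto that level is a lower limit of the change. This limit holds for every gene below, also where it is not repeated. Signals of different genes come from different probes and are not compared. Array medians lay between 4.43 and 4.66 in WT-Dox7 and between 4.46 and 4.55 in WT-Dox3, and the lowest correlation between any pair of the 40 arrays was 0.966. Sftpd itself had signals of 3.89 to 4.24 in WT-Dox7 and 3.94 to 4.07 in WT-Dox3, and of 3.85 to 4.28 in KO-Dox7 and 4.07 to 4.31 in KO-Dox3, at background in all, so it does not check the genotype labels. In a bulk sample, fewer cells of a type cannot be told apart from less RNA per cell.

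Mouse 102 of WT-Dox7 stood apart from the other 4 at many genes. Mice 232 and 244 of WT-Dox3 were the only ones of the 20 WT mice with a high signal of Tmprss15, the duodenal protease that activates trypsin (11.12 and 8.00). Among the saline mice, mouse 104 of WT-NaCl7 had 13.58 for Ccng1, 10.09 for Ephx1 and 10.99 for Serpina3n, while the highest of the other 9 saline arrays were 12.59, 8.33 and 8.52 for these genes. It sets the upper end of the saline range at these genes. Some of the results that rest on these mice are given without them below. A call is termed borderline where it was lost when at least 1 of the 10 doxorubicin mice was left out. Calls without that term could still be lost under the other alternatives, which are given near the end.

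Of 36155 genes, each read from its brightest transcript cluster, 606 (1.68%) were higher and 998 (2.76%) were lower in WT-Dox7 than in WT-Dox3 (limma, Benjamini-Hochberg over all 65956 clusters, adjusted p under 0.05). In clusters the counts were 801 (1.21%) higher and 1199 (1.82%) lower. The median difference of the genes that rose was 0.63, and that of the genes that fell was -0.72. Among them 110 rose and 278 fell by more than 1 on the log2 scale. Every WT-Dox7 array lay above every WT-Dox3 array at 562 genes (1.55%) and 903 clusters (1.37%), and below at 896 genes (2.48%) and 1113 clusters (1.69%). At 365 of the genes that fell and 80 of those that rose, both group means were at or under the highest background probe set.

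At most of these genes the WT-Dox7 mean lay inside the range of the WT saline arrays. Of the genes that rose, 479 (79%) had a WT-Dox3 mean outside the range of the 10 WT saline arrays and a WT-Dox7 mean inside it, and of those that fell, 827 (82.9%) did. Over all genes tested 11.7% were in that class and 83.2% had both means inside the range. Without saline mouse 104 the counts were 473 (78.1%) and 796 (79.8%). Still outside on the side where day 3 had been were 16 genes that rose and 18 that fell (21 and 70 without mouse 104), while 21 and 23 had crossed to the opposite side. Over all genes these classes held 1.89% and 0.16%, and 3% had a mean inside on day 3 and outside on day 7. In all, the WT-Dox7 mean was outside the range at 65 genes that rose (10.7%) and 65 that fell (6.51%), against 5.05% of all genes, and without mouse 104 at 85 (14%) and 120 (12%), against 6.88%. These shares describe the called genes, and no test was made of them. The genes were called on the same doxorubicin values, so all genes are no even comparison. The range holds both saline days and is wide at some genes, such as 13.04 to 19.08 for Gsdmc4.

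Between WT-NaCl7 and WT-NaCl3 no cluster of 65956 passed in limma, with 4128 (6.26%) at an unadjusted p under 0.05. The saline mice still differed in level between the days at many genes, among them interferon genes and the gasdermin C locus. With that saline difference taken off, 234 genes (0.647%) were higher and 217 (0.6%) lower in WT-Dox7. This loss of calls is given below for some gene groups only. Among the others, those that fell went from 6 to 3 in regenerating epithelium, 5 to 1 in neutrophils and 5 to 2 in chemokines. They went from 3 to 1 in matrix metalloproteinases, 3 to 0 in oxidative stress and 3 to 1 in carboxylesterases and P450. Respiratory chain genes that rose went from 5 to 0, and lipid absorption genes from 3 to 1. The p53 targets that fell went from 13 to 10.

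**Figure D1:**
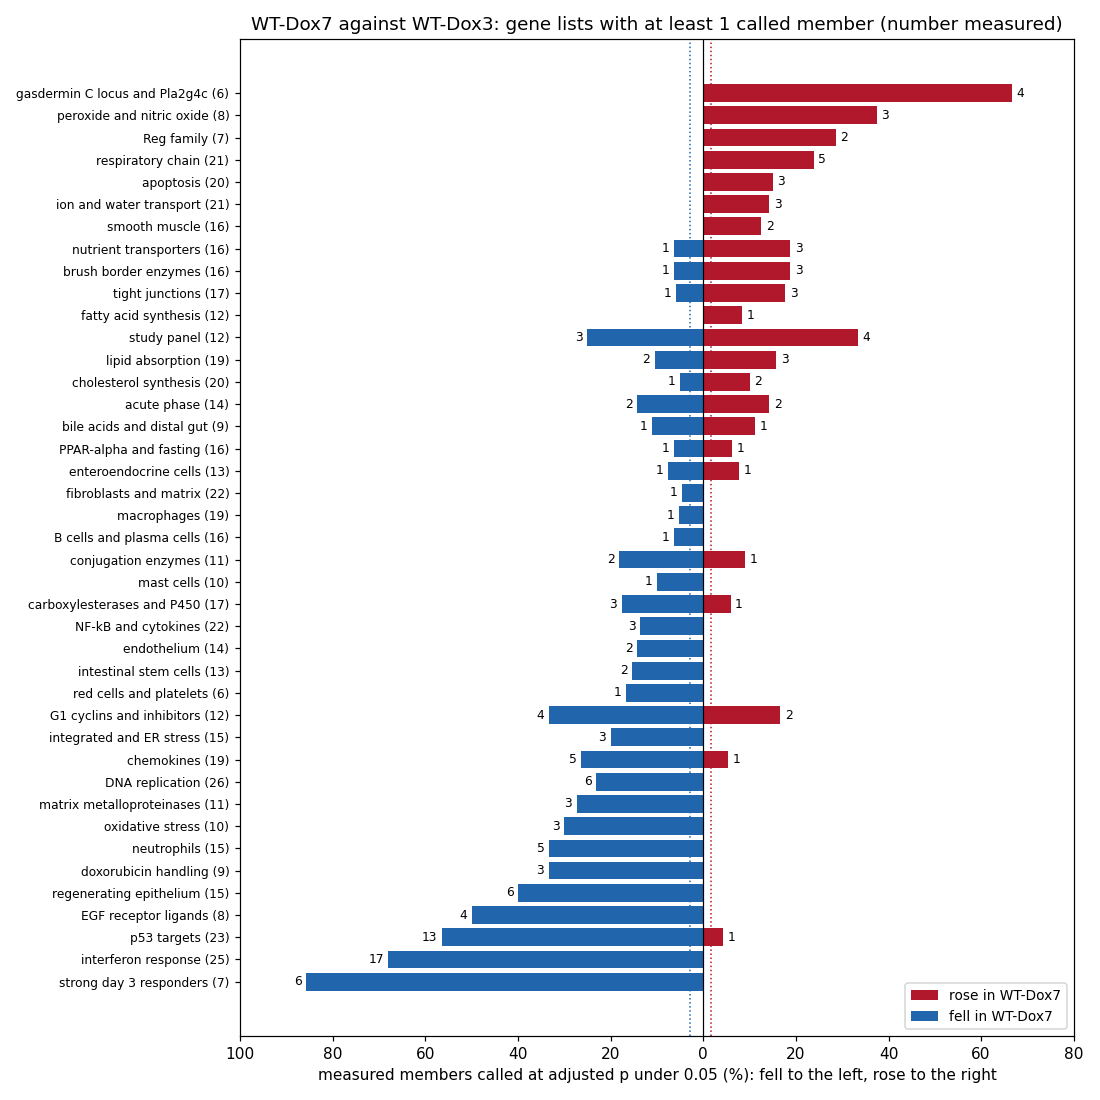
Share of the measured members of each gene list that rose (bars to the right) or fell (bars to the left) in WT-Dox7 against WT-Dox3, in percent, with the number of genes beside each bar and the number measured in parentheses. Dotted lines mark the shares over all genes, 1.68% higher and 2.76% lower, and 13 of 23 p53 targets and 17 of 25 interferon genes fell.

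Targets of p53, the transcription factor that answers DNA damage, came down together. Of 23 measured, 13 fell and 1 rose, with a median of -0.60 against 0.00 over all genes. The WT-Dox7 means lay in the saline range at 21 of the 23, a count not made without saline mouse 104. At several of them mouse 104 sets the upper end of that range. It had 8.77 for Plk2 and 5.75 for Eda2r, where the highest of the other 9 saline arrays were 8.09 and 4.68. Ccng1, cyclin G1, had signals of 12.87, 12.13, 12.58, 12.99 and 13.01 in WT-Dox7 and of 15.54, 15.24, 15.63, 15.72 and 15.26 in WT-Dox3, with 11.88 to 13.58 in saline. The groups lay far apart. All WT-Dox7 mice were within the saline range, but without saline mouse 104, whose signal was 13.58, that range ended at 12.59. Mice 96, 216 and 42263 of WT-Dox7 lay above 12.59, and so did the WT-Dox7 mean of 12.72. The difference was -2.76 ± 0.25 (SE, limma adjusted p = 7.78e-09), and it stayed with the saline difference taken off (adjusted p = 3.47e-06).

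Plk2, a stress-induced polo-like kinase, averaged 7.57 in WT-Dox7 and 9.77 in WT-Dox3, a difference of -2.20 ± 0.30 (limma adjusted p = 2.2e-05). Psrc1, a spindle protein, fell by 1.71 and Eda2r, a receptor of the tumour necrosis factor family, by 1.70. In saline Psrc1 reached 5.83 and Eda2r 5.75 at most, both under the highest background probe set. The feedback ligase Mdm2, which degrades p53, fell by 1.04, with 9.79, 9.09, 9.19, 9.08 and 9.37 in WT-Dox7 and 10.48, 9.58, 10.19, 10.49 and 10.97 in WT-Dox3. Mouse 146 of WT-Dox3 lay under mouse 96 of WT-Dox7, so these groups overlapped. The cell cycle inhibitor Cdkn1a fell by 0.75 (borderline, without mouse 232), and with the saline difference taken off its adjusted p was 0.0652. Bax, the pore-forming death effector, fell by 0.81.

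Sesn1, sestrin 1, which restrains growth signalling, was the 1 listed p53 target that rose. Its signals were 11.09, 10.16, 11.07, 11.25 and 11.08 in WT-Dox7 and 9.86, 10.12, 9.97, 9.08 and 8.98 in WT-Dox3, with 10.27 to 11.94 in saline. All WT-Dox7 arrays were above all WT-Dox3 arrays, mouse 102 by a small margin, and mice 232 and 244 were lowest. The difference was 1.33 ± 0.23 (limma adjusted p = 0.000478). Trp53inp1, a p53-induced regulator of stress and autophagy, went past the saline mice. It had 8.98, 8.95, 8.65, 9.14 and 9.03 in WT-Dox7 and 9.78 to 11.29 in WT-Dox3 against 9.11 to 10.10 in saline (-1.47 ± 0.22, limma adjusted p = 7.58e-05). The count of p53 targets that fell was 10 without mice 232 and 244.

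Of the 12 genes of the study's own panel, which the study chose on these samples, 4 rose and 3 fell. Of 7 genes known in these data as strong responders on day 3, a list that was picked from these samples, 6 fell and 1 did not pass. Ephx1, the microsomal epoxide hydrolase, had 8.57, 7.85, 8.70, 8.90 and 8.05 in WT-Dox7 and 12.23, 11.26, 11.42, 12.05 and 11.16 in WT-Dox3, with 7.81 to 10.09 in saline. No array of one group came near the other (-3.21 ± 0.29, limma adjusted p = 7.78e-09). Mboat1, a lysophospholipid acyltransferase, averaged 8.97 in WT-Dox7 and 11.72 in WT-Dox3 (-2.76 ± 0.45, limma adjusted p = 0.000221). Saline mouse 104 had 10.31 for Mboat1, and the highest of the other 9 saline arrays was 8.89, under the WT-Dox7 mean.

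The Zscan4 cluster encodes near-identical zinc finger proteins, known in mouse embryonic stem cells and early embryos, whose probes can share transcripts. Zscan4f had 3.62, 3.84, 4.06, 3.77 and 3.78 in WT-Dox7, at background, and 4.89, 5.40, 6.11, 8.65 and 7.87 in WT-Dox3. Only mice 232 and 244 exceeded the highest background probe set, so the fall of 2.77 (limma adjusted p = 0.00124) is a lower limit in those 2 and not clearly above background in the other 3. It lost its call without these 2 mice.

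Ddah1, which degrades the nitric oxide synthase inhibitor dimethylarginine, was the strong responder that did not pass. It had 9.88, 7.78, 9.69, 9.66 and 10.78 in WT-Dox7 and 10.22, 9.57, 10.96, 10.31 and 10.73 in WT-Dox3, while the 10 saline arrays ran from 6.65 to 8.70. All 5 WT-Dox3 mice and 4 of the 5 WT-Dox7 mice were above every saline mouse, and the days overlapped (-0.80 ± 0.38, limma adjusted p = 0.372). Only mouse 102 was at the saline level on day 7.

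Among 12 cyclins and inhibitors that govern entry into the cell cycle, 4 fell and 2 rose. Ccnd2, cyclin D2, had 12.80, 11.97, 12.90, 12.41 and 12.51 in WT-Dox7 and 14.76, 14.45, 15.43, 15.27 and 15.28 in WT-Dox3, with 12.43 to 13.63 in saline. All WT-Dox7 arrays were below all WT-Dox3 arrays, and mice 102 and 216 were below the saline range (-2.52 ± 0.19, limma adjusted p = 2.12e-10). It had the smallest adjusted p of the listed genes and also passed with the saline difference taken off (adjusted p = 1.43e-07).

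Cdk6, a partner kinase of the D cyclins, fell by 0.95, and Myc, the growth-promoting transcription factor, fell by 1.37 ± 0.26 (limma adjusted p = 0.00137), though Myc did not pass without mice 232 and 244. The 2 that rose are inhibitors of cyclin-dependent kinases. Cdkn2b, p15, had 8.17, 7.76, 7.71, 7.90 and 7.76 in WT-Dox7 and 7.45, 6.57, 6.85, 6.51 and 6.47 in WT-Dox3, with 7.44 to 8.24 in saline. The groups did not overlap, and all WT-Dox7 mice were within the saline range (1.09 ± 0.16, limma adjusted p = 4.97e-05). Cdkn1b, p27, rose by 0.72 ± 0.14 (limma adjusted p = 0.00116) without overlap.

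Of 26 DNA replication genes 6 fell, none rose and 25 had a negative difference, with a median of -0.40. Rrm2, the ribonucleotide reductase subunit that limits nucleotide supply, averaged 7.71 in WT-Dox7 and 9.61 in WT-Dox3 (-1.90 ± 0.31, limma adjusted p = 0.000214). The replicative helicase subunits Mcm3, Mcm4 and Mcm2 fell by 1.05, 0.95 and 0.85, all borderline. With the saline difference taken off, none of the 26 passed, and without mouse 232 the count was 2, against 12 without mice 232 and 244 together. None of 22 mitosis genes passed in limma (median -0.34), where Plk1, the mitotic polo-like kinase, had the largest difference (-0.66). Mki67, the proliferation antigen, averaged 12.9 in WT-Dox7 and 13.2 in WT-Dox3.

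Of 8 ligands of the EGF receptor family, growth factors of the crypt, 4 fell and none rose. Areg, amphiregulin, had 7.52, 5.80, 6.46, 5.99 and 6.18 in WT-Dox7 and 9.04, 7.89, 8.21, 11.12 and 11.57 in WT-Dox3, with 5.69 to 7.52 in saline. All WT-Dox7 mice were in the saline range and no WT-Dox3 mouse was, and mice 232 and 244 stood highest (-3.18 ± 0.55, limma adjusted p = 0.000426). With the saline difference taken off the adjusted p was 0.0825.

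Ereg, epiregulin, had 7.40, 6.41, 7.00, 7.16 and 7.42 in WT-Dox7 and 9.51, 8.56, 9.21, 10.88 and 11.30 in WT-Dox3, with 6.40 to 8.46 in saline. The groups were again apart (-2.81 ± 0.40, limma adjusted p = 4.4e-05). The stromal ligand Nrg1, neuregulin 1, fell by 1.67 and Btc, betacellulin, by 1.31. Egf, Tgfa, Hbegf and Epgn did not pass, and Egf and Tgfa differed by -0.02 and -0.01. Without mice 232 and 244 the count was 3 of 8.

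Of 15 genes of regenerating, wound-type epithelium 6 fell and none rose (median -0.81). Ly6a, the surface antigen Sca-1, had 12.44, 10.54, 12.09, 11.98 and 11.45 in WT-Dox7 and 14.43, 13.33, 13.46, 14.61 and 15.84 in WT-Dox3, with 10.44 to 12.46 in saline. Day 7 mice spanned the whole saline range and day 3 mice lay above it (-2.63 ± 0.50, limma adjusted p = 0.00125). Il1rn, the interleukin 1 receptor antagonist, fell by 2.35, S100a6, a calcium-binding protein of growing cells, by 1.71, and Anxa1, annexin A1, by 1.23 (borderline). Clu, clusterin, the marker of revival stem cells in mouse, averaged 8.7 in WT-Dox7 and 9.1 in WT-Dox3 and did not pass. Without mice 232 and 244 the count was 2 of 15.

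Tissue-remodelling proteases moved in the same direction. Of 11 matrix metalloproteinases and inhibitors 3 fell (Mmp10 by 1.99, Mmp3 by 1.59 and Mmp19 by 0.88). Mmp10, stromelysin 2, was 8.35 to 12.52 in WT-Dox3 with mice 232 and 244 highest, and it and Mmp19 were borderline. Of 13 stem cell markers, Hopx fell by 0.44 and Bmi1 by 0.25 (borderline), and the crypt base markers Lgr5 (0.54) and Olfm4 (1.84) did not pass, though Olfm4 passed without mouse 146 of WT-Dox3 (2.30, limma adjusted p = 0.0214).

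**Figure D2:**
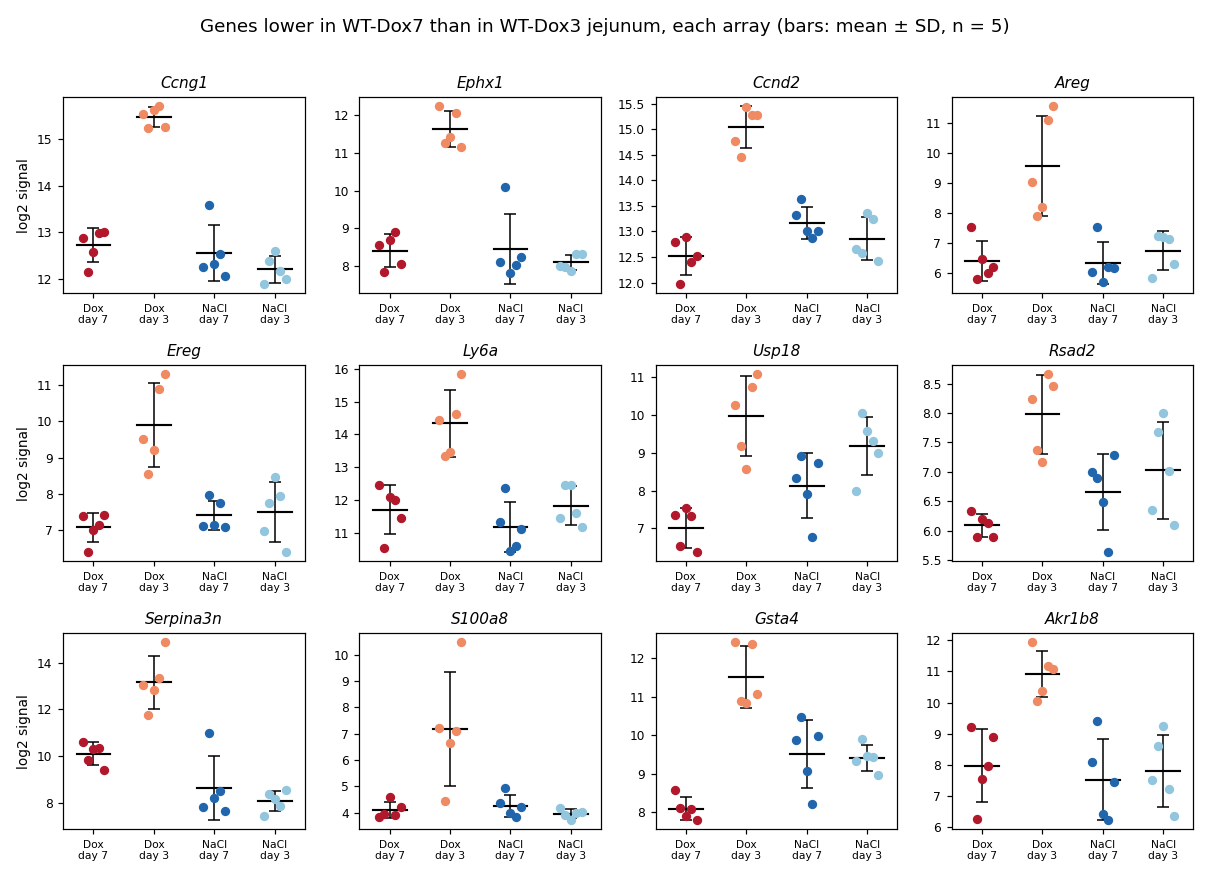
Log2 signal of 12 genes that fell, for each WT array (points) with the mean and SD of 5 mice, in the order doxorubicin day 7, doxorubicin day 3, saline day 7 and saline day 3. WT-Dox7 arrays lie apart from WT-Dox3 arrays for all but S100a8, and for Gsta4 4 of the 5 lie below all saline arrays.

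Of the gene lists, interferon-stimulated genes had the most members that fell. Of 25 measured, 17 fell and none rose (median -0.78), and 12 of the 25 had every WT-Dox7 array below every WT-Dox3 array. These genes are switched on by type I and type III interferons through a complex of transcription factors, which binds a DNA element, the interferon-stimulated response element, whose core is GAAA, any 2 bases and GAAA again. This core of 10 bases on either strand was looked for in the 250 bases before the start of each gene (RefSeq promoters, GRCm38.p6). It was in 12 of the 18 listed genes with a promoter in that table (66.7%) and in 7 of the 12 that fell (58.3%), against 936 of all 27025 promoters (3.46%). The other listed genes with the core were Stat2, Gbp2, Igtp, Irgm1 and Cxcl10, which did not pass. The core therefore did not set apart the listed genes that fell. As the list was made of interferon-stimulated genes, its high share says nothing about the fall. Among all genes that fell with a promoter the share was 5.13% (35 of 682), and among those that rose 3.13% (13 of 415).

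The element and up to 15 bases on each side, on the strand of the gene, are shown for 4 of the genes that fell, with 1 core in capitals, since these are the genes whose values follow.
Ifit1 (chr19:34640770-34640809, plus strand): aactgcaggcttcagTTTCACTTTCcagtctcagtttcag
Ifit3 (chr19:34583358-34583397, plus strand): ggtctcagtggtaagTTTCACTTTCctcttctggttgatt
Rsad2 (chr12:26456548-26456587, minus strand): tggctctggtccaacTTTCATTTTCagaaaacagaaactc
Oas1a (chr5:120907526-120907560, minus strand): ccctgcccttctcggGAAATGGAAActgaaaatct
The core in capitals starts 104 bases before the gene start in Ifit1, 156 in Ifit3, 120 in Rsad2 and 20 in Oas1a. Ifit1, Ifit3 and Oas1a each hold 2 matches in the 250 bases, of which 1 is in capitals, and in Oas1a the other overlaps it. A match describes these letters only and shows no binding.

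Rsad2, viperin, an antiviral enzyme, had 6.34, 5.89, 6.20, 6.14 and 5.89 in WT-Dox7 and 8.24, 7.37, 7.17, 8.66 and 8.46 in WT-Dox3, with 5.64 to 8.00 in saline. The doxorubicin groups did not overlap, but the saline mice covered nearly the full span of both (-1.89 ± 0.31, limma adjusted p = 0.000213). Oas1a, which makes the activator of an antiviral RNase and has close copies on the same chromosome, averaged 9.38 in WT-Dox7 and 11.4 in WT-Dox3 (-2.01 ± 0.29, limma adjusted p = 5.93e-05). Ifit1 and Ifit3, which bind viral RNA, fell by 1.95 (borderline, without mouse 232) and 1.37.

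Usp18, which removes the ubiquitin-like Isg15 and dampens interferon signalling, had 7.35, 6.52, 7.53, 7.32 and 6.37 in WT-Dox7 and 10.27, 9.19, 8.57, 10.76 and 11.09 in WT-Dox3. The groups did not overlap (-2.96 ± 0.44, limma adjusted p = 7.58e-05). The saline mice averaged 8.14 on day 7 and 9.18 on day 3, so all 5 WT-Dox7 mice were below the day 7 saline mean. With the saline difference taken off, Usp18 differed by -1.91 (limma adjusted p = 0.165).

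That limit holds for the group. Over the 25 genes the saline mice themselves had a median day difference of -0.51, and with it taken off 1 of the 25, Oas2, passed. All 25 WT-Dox7 means were within the saline range, and so were 15 of the 25 WT-Dox3 means. The list mean was 8.18, 6.85, 7.82, 7.68 and 7.72 in mice 96, 102, 198, 216 and 42263 of WT-Dox7 and 9.04, 8.64, 8.06, 9.05 and 9.15 in mice 144, 146, 192, 232 and 244 of WT-Dox3. Mouse 192 of WT-Dox3 lay below mouse 96 of WT-Dox7, and mouse 102 was lowest. Without mouse 102 the count was 12 of 25, and without mice 232 and 244 it was 11. Igtp, Irgm1 and Gbp2 of the interferon gamma arm and the 6 class II antigen presentation genes did not pass, whereas the related Gbp3 fell.

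**Figure D3:**
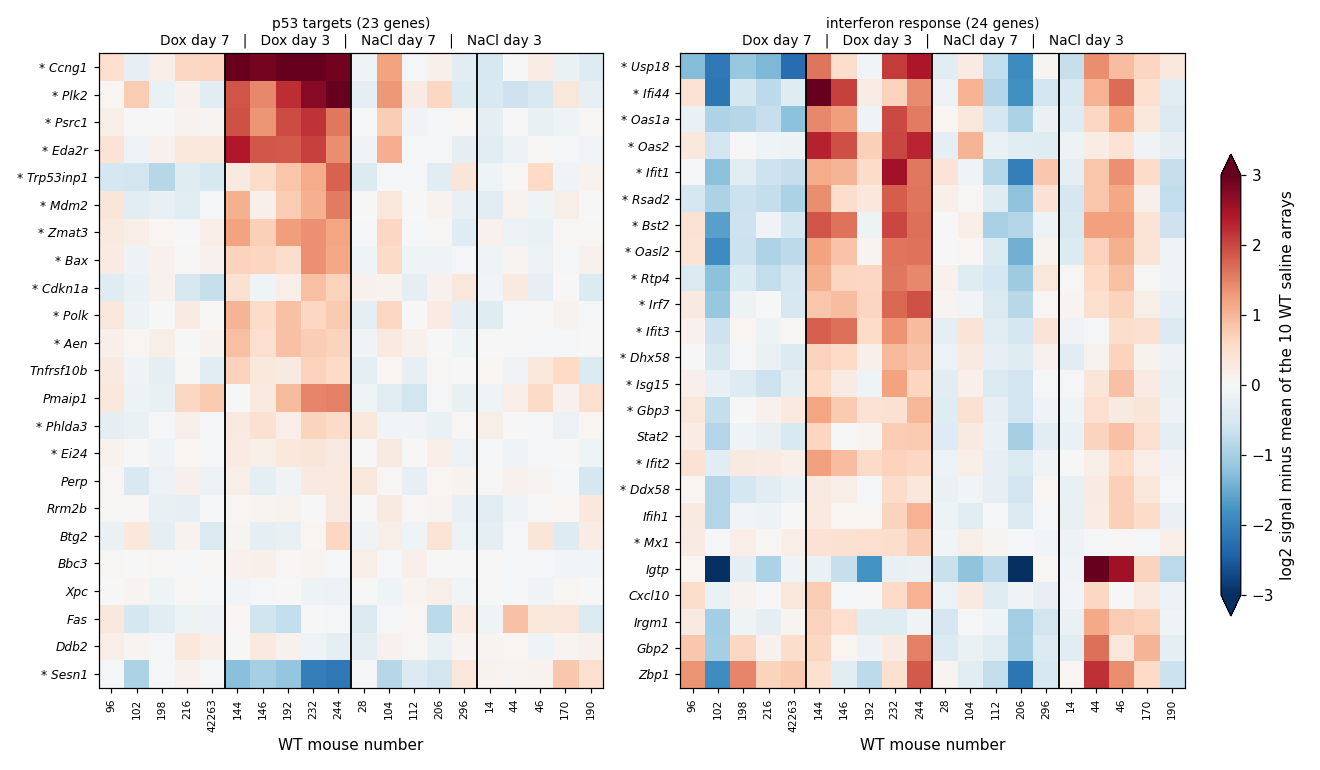
Log2 signal of p53 targets (left) and interferon genes (right) in every WT mouse minus the mean of the 10 WT saline arrays, with WT-Dox7, WT-Dox3, WT-NaCl7 and WT-NaCl3 from left to right. Stars mark genes that passed, and 24 of the 25 interferon genes are drawn. Ccng1, Plk2, Psrc1 and Eda2r are red in all 5 WT-Dox3 mice and in saline mouse 104, and interferon genes vary among the saline mice too.

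Inflammatory genes fell at fewer members. Serpina3n, an acute phase protease inhibitor, had 10.61, 9.82, 10.31, 10.35 and 9.40 in WT-Dox7 and 13.03, 11.74, 12.82, 13.33 and 14.88 in WT-Dox3. The saline arrays other than mouse 104 ran from 7.44 to 8.52, so every WT-Dox7 mouse was still above those 9. The difference was -3.06 ± 0.60 (limma adjusted p = 0.00164). S100a8, a calprotectin subunit of neutrophils, had 3.82, 3.93, 4.59, 3.92 and 4.20 in WT-Dox7, at background, and 7.21, 4.42, 6.63, 7.09 and 10.48 in WT-Dox3. Mouse 146 of WT-Dox3 was as low as the day 7 mice and mouse 244 was highest (-3.07 ± 0.53, limma adjusted p = 0.000426).

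Of 15 neutrophil markers 5 fell and none rose, among them S100a9 by 2.07, the decoy receptor Il1r2 by 1.52 and the receptor Csf3r by 0.92 (borderline). The granule genes Mpo, Elane, Camp and Ngp were at background on both days. Without mice 232 and 244 the count was 2 of 15. Of 19 chemokines 5 fell, including the monocyte attractants Ccl2 by 1.23 and Ccl7 by 1.15, and 1 rose (Ccl28, the mucosal chemokine, by 1.65, borderline). Of 22 NF-kB and cytokine genes Csf1, Icam1 and Lif fell, by 0.75, 0.66 and 0.38, the last pair borderline. Il1b (-1.43), Tnf (-0.36), Il6 (-0.03) and Ifng (0.10) did not pass, though Il1b passed without mouse 146 of WT-Dox3 (-1.94, limma adjusted p = 0.00463).

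Of 14 acute phase genes 2 rose and 2 fell. Saa1, a serum amyloid A, had 8.82, 5.81, 7.43, 7.34 and 10.00 in WT-Dox7 and 5.90, 5.30, 6.35, 5.71 and 5.93 in WT-Dox3, with 4.73 to 5.74 in saline. Apart from mouse 102, the day 7 mice were above all day 3 and all saline mice (2.04 ± 0.50, limma adjusted p = 0.0143), but the call was lost without mouse 96 or mouse 42263. Saa2 rose by 1.01 and Saa3 fell by 1.01, both borderline. Reg3a, an antimicrobial lectin, had 12.40, 7.89, 12.26, 12.74 and 12.32 in WT-Dox7 and 8.13 to 9.73 in WT-Dox3, with mouse 102 below every day 3 mouse (2.85 ± 0.66, limma adjusted p = 0.00847). Nos2, the inducible nitric oxide synthase, had 10.58, 5.26, 10.03, 8.95 and 11.62 in WT-Dox7 and 5.45 to 8.91 in WT-Dox3 and did not pass (2.58 ± 0.96, limma adjusted p = 0.18). It passed without mouse 102.

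Among the genes that rose without overlap between the groups, Car4 and Apol10a had the largest differences. Car4, the brush border carbonic anhydrase, had 13.08, 14.44, 13.38, 13.31 and 12.52 in WT-Dox7 and 11.16, 11.12, 9.40, 7.08 and 6.63 in WT-Dox3, with 12.29 to 14.29 in saline. The lowest values were those of mice 232 and 244, and no WT-Dox3 mouse reached the saline range (4.27 ± 0.61, limma adjusted p = 4.9e-05). Apol10a, an apolipoprotein L, had 13.31, 11.64, 13.18, 13.03 and 12.79 in WT-Dox7 and 10.46, 10.50, 8.53, 7.00 and 7.80 in WT-Dox3 (3.93 ± 0.55, limma adjusted p = 3.33e-05). Both passed with the saline difference taken off.

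Kcnj13, an inwardly rectifying potassium channel of epithelia, had 11.39, 10.41, 11.14, 10.67 and 10.76 in WT-Dox7 and 9.19, 7.70, 7.53, 5.23 and 5.99 in WT-Dox3. The groups did not overlap. For Kcnj13 the difference was 3.75 ± 0.72 (limma adjusted p = 0.00141), and the call was lost without mice 232 and 244 and with the saline difference taken off (adjusted p = 0.0744). Muc4, a membrane mucin, rose by 2.45 and Dio1, which converts thyroxine to its active form, by 2.27. Vdr, the vitamin D receptor, rose by 1.36 ± 0.24 and Ptdss1, a phosphatidylserine synthase, by 1.58 ± 0.20.

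Duox2, the epithelial oxidase that makes hydrogen peroxide, had 14.33, 16.66, 14.92, 15.18 and 13.40 in WT-Dox7 and 13.32, 10.70, 10.62, 9.69 and 11.14 in WT-Dox3, with 11.67 to 16.97 in saline. Mouse 144 of WT-Dox3 nearly met mouse 42263 of WT-Dox7, without overlap (3.80 ± 0.69, limma adjusted p = 0.000774). Its maturation factor Duoxa2 rose by 3.42 (borderline). Saline mice averaged 15.77 on day 7 and 13.66 on day 3 for Duox2, and with that taken off the adjusted p was 0.632.

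The sets of enterocyte genes moved at a minority of members. Of 16 brush border enzymes 3 rose, the peptidases Naaladl1 by 1.57, Xpnpep2 by 1.5 and Dpp4 by 0.67 (the last pair borderline), and 1 fell. Sis, Lct, Alpi and Anpep did not pass, with group means that differed by 0.35 or less. Sis and Anpep averaged 19.19 or more in both groups, near the top of the scale, where a change may not be seen. The enzyme that fell was Tmprss15, at 3.57, 3.83, 3.5, 3.56 and 3.79 in WT-Dox7 and 3.98, 4.03, 3.87, 11.12 and 8.00 in WT-Dox3. That call rests on 2 mice and was lost without either of them, and also on leaving out any single WT-Dox7 mouse.

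Of 16 nutrient transporters 3 rose and 1 fell. Slc1a1, which takes up glutamate and aspartate, had 10.01, 11, 10.53, 10.64 and 10.07 in WT-Dox7 and 9.30, 9.04, 8.29, 7.17 and 7.00 in WT-Dox3, without overlap (2.29 ± 0.42, limma adjusted p = 0.000827). The proton-coupled amino acid carrier Slc36a1 rose by 1.33 (borderline) and the cystine carrier subunit Slc7a9 by 0.73. The thiamine carrier Slc19a3 fell by 2.64, with mouse 232 highest at 9.93 in WT-Dox3, and lost its call without mice 232 and 244. The glucose and peptide carriers Slc5a1 (0.24) and Slc15a1 (0.12) did not pass. Fabp6, the ileal bile acid binding protein, had 6.37, 5.02, 11.36, 8.52 and 10.19 in WT-Dox7 and 4.68, 4.67, 8.10, 4.61 and 4.64 in WT-Dox3, and 4.53 to 10.56 in saline. It is a marker of distal and Tmprss15 of proximal intestine, both varied between mice within a day, and the part of sampling position in the enterocyte differences was not tested.

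Of 19 lipid absorption genes 3 rose and 2 fell. Npc1l1, the cholesterol importer, had 17.58, 16.94, 17.91, 17.75 and 17.46 in WT-Dox7 and 16.51, 16.57, 16.80, 16.20 and 16.00 in WT-Dox3, with 17.17 to 17.92 in saline. All WT-Dox7 arrays were above all WT-Dox3 arrays (1.11 ± 0.18, limma adjusted p = 0.000218). The sterol exporter subunit Abcg5 rose by 0.95 and Dgat1, which makes triglycerides, by 0.78, while its counterpart Dgat2 fell by 1.2 and the lipoprotein receptor Scarb1 by 0.64. The calls of Dgat1 and Dgat2 were borderline. The apolipoproteins Apoa1, Apoa4 and Apob and the fatty acid binding protein Fabp2 differed by 0.15 or less and did not pass, but Apoa1, Apoa4 and Fabp2 had signals of 18.96 or more in every doxorubicin mouse, near the top of the scale.

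Ion transport and junction genes rose at 3 members each. Beside Car4 these were the bicarbonate carrier Slc4a4 (1.26) and the sodium-proton exchanger Slc9a2 (0.99) of 21 ion and water transport genes, all 3 without overlap. Cldn15, the claudin of cation pores in the small intestine, rose by 0.99 ± 0.21 (limma adjusted p = 0.00461), Tjp3 by 0.93 and Marveld2 by 0.37 (borderline). Cldn2, the leaky claudin of crypts, fell. It had 5.53, 4.5, 5.31, 5.48 and 5.54 in WT-Dox7 and 7.17, 6.09, 6.67, 7.16 and 6.95 in WT-Dox3, with only part of the WT-Dox3 values above the highest background probe set (-1.54 ± 0.26, limma adjusted p = 0.00041). Of 21 respiratory chain genes 20 had a positive difference (median 0.38) and 5 passed. With either mouse 232 or mouse 216 left out none of the 5 passed.

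**Figure D4:**
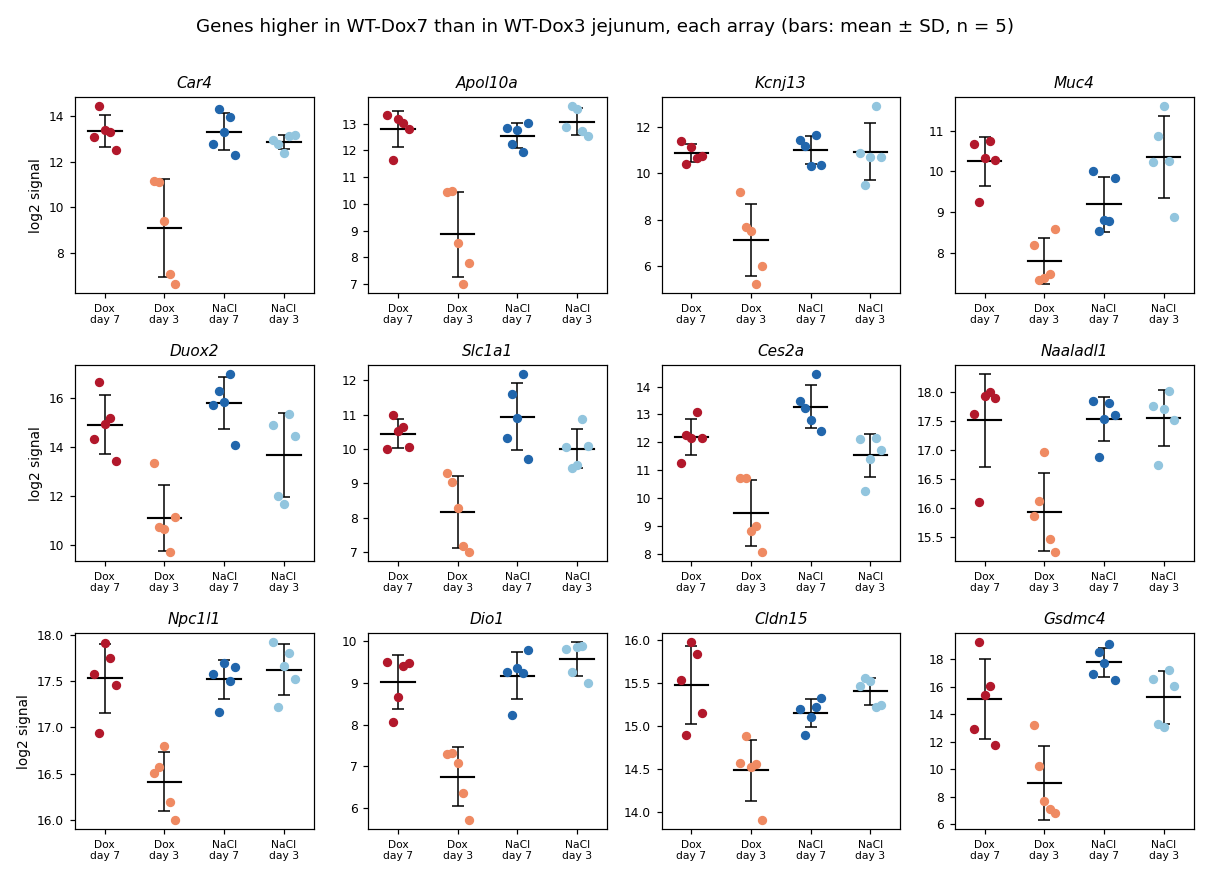
Log2 signal of 12 genes that rose, for each WT array (points) with the mean and SD of 5 mice, in the order doxorubicin day 7, doxorubicin day 3, saline day 7 and saline day 3. All WT-Dox3 arrays lie below the WT-Dox7 arrays for Car4, Apol10a, Kcnj13 and Npc1l1, while for Gsdmc4 mouse 144 of WT-Dox3 lies above 2 of the WT-Dox7 mice.

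The gasdermin C genes rose by large and widely spread differences. Gasdermins form membrane pores, and Gsdmc2, Gsdmc3 and Gsdmc4 are near-identical neighbours whose probes cannot be told apart with certainty. Gsdmc4 had 12.91, 19.22, 15.41, 16.07 and 11.79 in WT-Dox7 and 13.18, 10.25, 7.71, 7.08 and 6.80 in WT-Dox3, with 13.04 to 19.08 in saline. Mouse 144 of WT-Dox3 was above 2 of the WT-Dox7 mice (6.08 ± 1.10, limma adjusted p = 0.000743). Gsdmc2 and Gsdmc3 rose by 5.99 and 5.84, and Gsdmc by 2.12 (borderline), while Gsdmd (0.10) did not pass. Both Gsdmc means (6.04 in WT-Dox7 and 3.93 in WT-Dox3) were under the highest background probe set.

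For Gsdmc4 the saline mice averaged 17.75 on day 7 and 15.20 on day 3, and with this taken off none of the 4 passed. Pla2g4c, a cytosolic phospholipase, ran from 5.78 in mouse 42263 to 18.94 in mouse 102 of WT-Dox7 and from 5.54 to 12.71 in WT-Dox3 and did not pass (3.70 ± 1.94, limma adjusted p = 0.461). In saline it ran from 5.46 to 18.85. Of 20 apoptosis genes 3 rose and none fell, among them the inflammatory caspase Casp1 by 1.05 and the apoptosome scaffold Apaf1 by 0.76, both borderline.

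Xenobiotic enzymes moved both ways, and most did not pass. Of 17 carboxylesterases and cytochromes P450 1 rose and 3 fell (median 0.21, 10 positive), and of 11 conjugation enzymes 1 rose and 2 fell (median 0.11, 6 positive). Gsta4, a glutathione transferase for lipid aldehydes, had 8.59, 8.11, 7.90, 8.08 and 7.81 in WT-Dox7 and 12.42, 10.90, 10.85, 12.38 and 11.07 in WT-Dox3, with 8.21 to 10.48 in saline. On day 3 every mouse was above and on day 7 4 of 5 mice were below all saline mice (-3.43 ± 0.40, limma adjusted p = 2.07e-06). Cyp2d26, a cytochrome P450, had 13.61, 13.45, 13.08, 13.43 and 13.82 in WT-Dox7 and 14.86, 15.18, 15.25, 16.93 and 15.85 in WT-Dox3, with 14.19 to 15.38 in saline. All 5 WT-Dox7 mice were below all saline mice (-2.14 ± 0.36, limma adjusted p = 0.000323). Cyp3a11 fell by 2.13 (borderline).

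Akr1b8, an aldo-keto reductase, had 9.21, 6.28, 7.56, 7.96 and 8.89 in WT-Dox7 and 11.94, 10.06, 10.38, 11.17 and 11.08 in WT-Dox3, with 6.25 to 9.40 in saline. Day 7 mice were all within the saline range and day 3 mice all above it (-2.95 ± 0.56, limma adjusted p = 0.00125). Gclc, which limits glutathione synthesis, fell by 1.05 and Hmox1, heme oxygenase 1, by 0.81 (borderline). Of the exporters of anthracyclines Abcb1b fell by 0.95 (borderline) and Abcc1 by 0.86, as did the carbonyl reductase Cbr3 by 0.79. The carboxylesterase Ces2a rose by 2.73. Bbox1, the last enzyme of carnitine synthesis, fell by 3.55 ± 0.58 (limma adjusted p = 0.000218), with mouse 232 highest at 11.33 in WT-Dox3.

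Few markers of other cell types passed, though some lists leaned one way. None of the Paneth, goblet or tuft cell markers passed, nor did those of T cells and intraepithelial lymphocytes, eosinophils, enteric neurons and glia, adipocytes or pancreatic enzymes, nor 16 clock genes. Mean signals of the Paneth cell lysozyme Lyz1 were 19.86 in WT-Dox7 and 19.82 in WT-Dox3, near the top of the scale. Siglec1, of 19 macrophage markers, fell by 0.54 (borderline), and Hdc, of 10 mast cell markers, by 0.75. Both Siglec1 means (5.5 in WT-Dox7 and 6.04 in WT-Dox3) were under the highest background probe set. So was every WT-Dox3 array of Hdc, at most 6.27. Among enteroendocrine markers the hormone Pyy rose by 1.39 and the transcription factor Neurog3 fell by 0.70, and the plasma cell antigen Sdc1, which epithelia also make, fell by 0.54, all borderline. Both Pyy means (6.82 in WT-Dox7 and 5.43 in WT-Dox3) were under the highest background probe set. Of 14 endothelial markers 13 had a negative difference (median -0.44), Tek and Lyve1 fell by 0.50 and 1.05, both borderline, and 2 of the 14 WT-Dox3 means were in the saline range. Of 22 fibroblast and matrix genes 20 had a negative difference (median -0.33), and Thbs1, thrombospondin 1, fell by 1.86. Without mice 232 and 244 none of these endothelial or fibroblast genes passed, and the medians were -0.09 and 0.05. The mast cell proteases Mcpt1 (-1.92) and Mcpt2 (-1.96) did not pass. Of 16 smooth muscle genes Myl9 and Mylk rose, by 0.95 and 0.47, both borderline, and 14 had a positive difference (median 0.51). Their list mean was 12.19 in mouse 102 and 10.48 to 11.11 in the other WT-Dox7 mice, against 10.28 to 10.85 in WT-Dox3. The part of muscle content in other results was not tested.

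The KO mice were used to ask whether recovery differed between genotypes. The difference of the 2 day contrasts passed at none of 65956 clusters in limma, and 2348 (3.56%) had an unadjusted p under 0.05. Between KO-Dox7 and KO-Dox3, 1218 genes (3.37%) were higher and 2217 (6.13%) lower. Of the 606 genes that rose in WT mice 473 (78.1%) also rose in KO mice, and of the 998 that fell 832 (83.4%) fell, with medians of 0.65 and -0.81 in KO mice. Areg differed by -3.18 in WT and -3.22 in KO mice, and Ccng1 by -2.76 in WT and -2.96 in KO mice. Among named genes Mbl2, mannose-binding lectin, fell by 3.01 ± 0.58 in WT mice, while in KO mice the difference was -0.70 ± 0.58 and did not pass. For S100a8 it was -3.07 in WT and -1.04 in KO mice. The WT difference minus the KO difference was -2.31 ± 0.81 for Mbl2 and -2.03 ± 0.75 for S100a8, with a limma adjusted p of 0.999 for both, so no difference between the genotypes was shown.

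**Figure D5:**
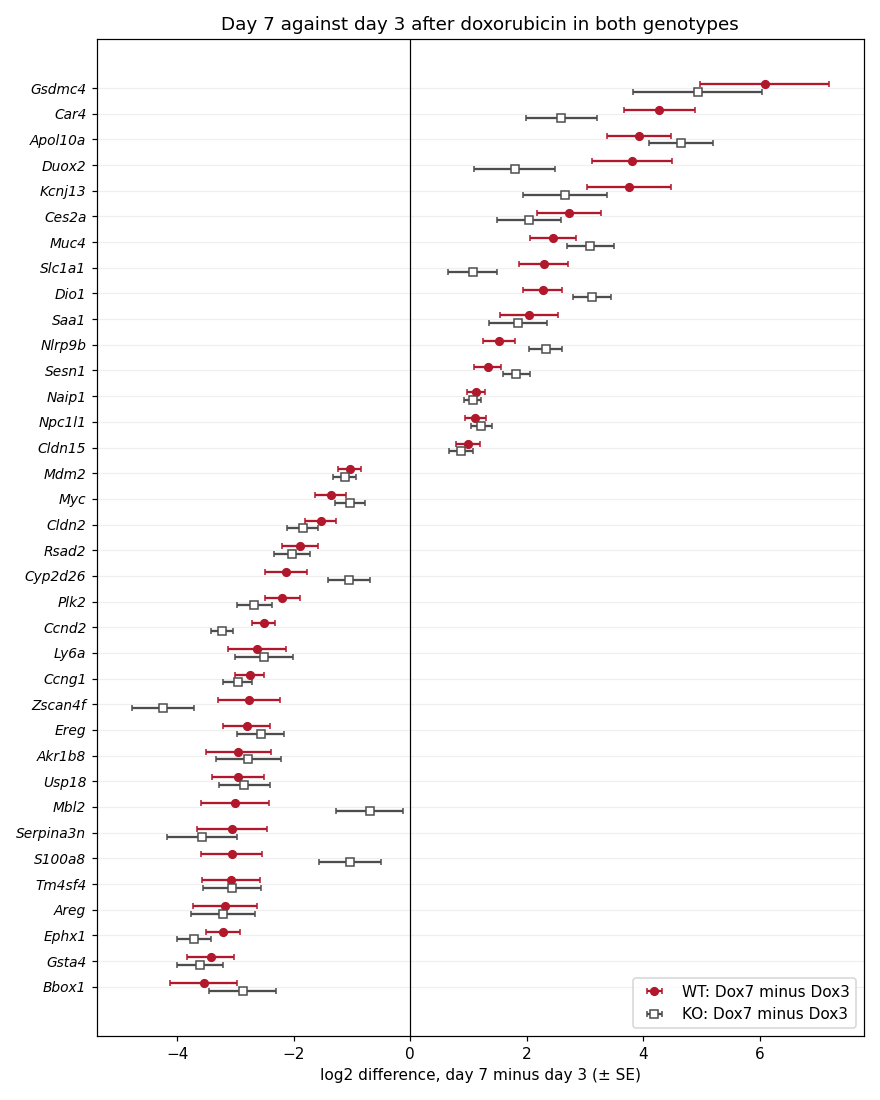
Log2 difference between day 7 and day 3 after doxorubicin, with its SE, for named genes in WT mice (filled circles) and KO mice (open squares). The genotypes share direction at every gene plotted, and Mbl2 (-3.01 in WT, -0.70 in KO) and S100a8 (-3.07 in WT, -1.04 in KO) are furthest apart of those that fell.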

How the data were processed

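RNA of the jejunum was measured on Affymetrix Mouse Transcriptome Array 1.0, 1 array per mouse. The deposited values are log2 signals per transcript cluster. Per the labels the authors used RMA in Affymetrix Expression Console, whereas the study's methods describe limma, with its normexp step for background and quantile scaling between arrays, and which of these made the table is not settled here. The authors' tables of folds and p-values were not used, except that 1 of them gave the gene symbols, with its group averages (log2, as deposited) used only to check the scale. The genome build of its positions is not given in the sources used here, and 28364 of 28563 symbols (99.3%) overlapped the same gene in RefSeq GRCm38.p6.

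From 72688 probe sets 6732 controls were left out. The remaining 65956 clusters were fitted over all 8 groups and 40 arrays in limma 3.58.1 (R 4.3.3; lmFit, eBayes), with Benjamini-Hochberg adjustment over all clusters and a threshold of 0.05. No filter on dim clusters was used. A gene is its brightest cluster with 1 symbol. Of the clusters 36559 had 1 symbol, 3042 several and 26355 none. The script was tested on simulated data. The number of arrays limits the precision. SE and p-values rest on 1 spread between mice per cluster, shared by all 8 groups. They do not measure the spread among the compared mice alone, which was uneven at some genes.

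The members and the 53 gene lists (737 of 776 genes matched) were chosen with earlier results of these data known. Named genes are up to 15 in each direction with the largest difference among called genes whose arrays did not overlap, up to 4 called members of each list (or the 2 largest where none passed), the study's own panel of genes and Sftpd. Further list members, the apolipoprotein L, Naip and inflammasome genes, Plb1 and the genes named for their position against saline were chosen after their values were seen, as were 3 alternatives that leave out mice 232 and 244 or mouse 104. The other alternatives changed the groups fitted, the variance model, array weights, normalization, centring, brightness filter, symbol rule and saline reference, or left out each mouse. Some genes are counted in their lists but not reported by name.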

Additional observations from a re-analysis of the deposited data

Results flagged for a closer look

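The highest or the lowest of 5 mice lay apart from the other 4 by a gap of more than 0.71 of the group's range, Dixon's critical value for 5 values, in 50 of 484 gene and group sets tested (10.3%), where chance gives about 1 in 20. Mouse 102 of WT-Dox7 accounted for 26 of the 50. Each value is a log2 signal, given against the lowest and highest of the other 4 mice of the same group. The causes were not tested.

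In mouse 102 the following genes, many of them enterocyte and antimicrobial genes, were lowest. Apaf1 was 9.98 against 11.01 to 11.35, Reg3a was 7.89 against 12.26 to 12.74 and Reg3d was 4.11 against 5.63 to 5.86. Clca1 was 8.61 against 10.34 to 11, Naaladl1 was 16.10 against 17.62 to 17.99, Slc36a1 was 11.29 against 13.14 to 13.68 and Slc7a9 was 11.21 against 11.95 to 12.08. Abcg5 was 13.29 against 14.18 to 14.52, Cldn2 was 4.5 against 5.31 to 5.54 and Icam1 was 5.12 against 5.45 to 5.55. Saa2 was 4.48 against 5.96 to 6.40, Enpp7 was 15.22 against 17.60 to 17.95, Plb1 was 8.13 against 14.22 to 15.82 and Dnase1 was 7.39 against 10.50 to 10.83. Reg3g was 16.40 against 19.66 to 19.92, Sesn1 was 10.16 against 11.07 to 11.25 and Igtp was 6.68 against 9.22 to 10.22. Anpep was 19.69 against 19.84 to 19.87, Slc15a1 was 16.87 against 18.21 to 18.26, Apoa1 was 18.96 against 19.11 to 19.13 and Fabp2 was 19.73 against 19.89 to 19.91. Lyz1 was 19.73 against 19.88 to 19.91.

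Mouse 102 was highest for a few genes, among them the tuft cell genes Ptgs1 and Sh2d6. Tm4sf4 was 12.24 against 9.41 to 9.73, Ptgs1 was 8.21 against 7.52 to 7.70, Sh2d6 was 8.92 against 5.25 to 5.70 and Capn13 was 14.45 against 8.28 to 9.89.

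In the other WT-Dox7 mice, 96 was highest for the Apol9 genes and 216 for Ptdss1 and Sc5d. Ptdss1 was 13.57 against 12.99 to 13.12, Sc5d was 11.39 against 11.23 to 11.26, Apol9a was 8.05 against 5.99 to 6.28 and Apol9b was 7.71 against 6.52 to 6.83.

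In WT-Dox3, mouse 244 stood apart at 8 genes, highest for all but Ube2c and Sis. Ube2c was 10.52 against 11.23 to 11.50, Csf3r was 7.76 against 4.86 to 5.56, Hdc was 6.27 against 4.5 to 4.91 and Il5ra was 4.81 against 3.68 to 3.89. Tek was 7.02 against 6.27 to 6.39, Cybrd1 was 10.80 against 7.08 to 8.02, Clu was 11.69 against 8.09 to 9.06 and Sis was 18.25 against 19.21 to 19.53.

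Mouse 232 was highest for the Apol9 genes and lowest for Pyy and Lyz1. Pyy was 4.32 against 5.57 to 5.94, Apol9a was 10.54 against 7.50 to 8.15, Apol9b was 10.34 against 7.65 to 8.16 and Lyz1 was 19.67 against 19.83 to 19.87.

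Mouse 192 was highest for Plb1, Fabp6 and Mpo and lowest for the interferon genes. Oas2 was 6.65 against 7.88 to 8.25, Plb1 was 12.01 against 5.11 to 6.39, Fabp6 was 8.10 against 4.61 to 4.68 and Oas1g was 8.75 against 9.98 to 10.42. Mpo was 3.85 against 3.64 to 3.67.

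Mouse 144 was highest for Duoxa2 and Pla2g4c, and mouse 146 was lowest for Reg3g. Duoxa2 was 14.82 against 10.28 to 11.56, Pla2g4c was 12.71 against 5.54 to 7.40 and Reg3g was 16.04 against 18.56 to 18.69.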

How the results depend on the processing

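No result reversed under any alternative. The counts of clusters higher and lower in WT-Dox7 (801 and 1199) were 201 and 307 when only the compared groups were fitted. With only the 4 WT groups they were 539 and 810. The study's methods name an analysis of variance. Under a plain analysis of variance of the compared groups alone, without the eBayes step, they were 18 and 31. They were 293 and 262 with the saline day difference taken off, and 190 and 120 when mouse 104 was also left out. Without mice 232 and 244, 380 clusters were higher. Leaving out 1 mouse at a time gave 495 (without mouse 232) to 911 (without mouse 102) higher and 780 (without mouse 232) to 1369 (without mouse 146) lower, and 500 were higher without mouse 216. The saline days differed at 0 clusters, at 1 when only they were fitted, and at 0 to 1 with 1 mouse left out (1 without WT-NaCl7 mouse 296). The genotypes differed at 0 clusters in every alternative run. With only the compared groups the fit has fewer arrays to estimate the spread from; for the other alternatives the cause was not tested.

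Of 166 named genes that passed, those that lost the call numbered 106 with only the compared groups, 157 under the analysis of variance, 42 with only the 4 WT groups, 6 with trend and robust variances, 13 with array weights, 14 with quantile normalization repeated, 19 with each array centred on its median, 109 with the saline difference taken off, 132 with that and without mouse 104, 77 without mice 232 and 244, and 59 on leaving out at least 1 mouse. The brightness filter, the symbol rule and the mean over a gene's clusters removed no call. Among the calls termed borderline, the lost ones without mouse 232 were Gsdmc, Mcm2, Mcm3, Mcm4, Casp1, Bmi1, Anxa1, Xpnpep2, Dgat2, Cyp3a11, Abcb1b, Duoxa2, Marveld2, Icam1, Lif, Ccl28, Saa3, Mmp10, Mmp19, Siglec1, Myl9, Mylk, Cdkn1a, Ifit1, Pyy, Neurog3, Sdc1, Tek, Lyve1 and Plb1. Slc36a1 was lost without mouse 198, Hmox1 without mouse 244, Csf3r without mouse 244 or any WT-Dox7 mouse, Apaf1 without mouse 144, 146 or 192 or any WT-Dox7 mouse but 102, Dpp4 without mouse 144, 146, 198, 216 or 42263, Dgat1 without mouse 144, 192, 96, 198 or 216, and Saa2 without mouse 144, 146, 96, 198, 216 or 42263.

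No paired analysis was possible because WT-Dox7 and WT-Dox3 share no mouse numbers. Genes at background on 1 day have only a lower limit of their fall, and 365 genes that fell had both means at or under the highest background probe set.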

Other observations

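Naip1, Naip2, Naip3 and Naip5 rose by 1.13, 1.13, 1.19 and 1.43, though they are close copies whose probes may share transcripts. They belong to a family with members that bind flagellin or secretion system proteins. Naip2 had 12.22, 12.23, 12.57, 12.75 and 12.31 in WT-Dox7 and 11.31, 11.75, 11.22, 11 and 11.17 in WT-Dox3, with 11.39 to 12.29 in saline. The groups did not overlap, and the means lay on opposite sides of the saline range. Their partner Nlrc4 (0.27) did not pass. Nlrp9b, an epithelial sensor in mouse, rose by 1.52, with all 5 WT-Dox7 mice above all 5 WT-Dox3 mice, and Nlrp6 and the adaptor Pycard rose by 1.52 and 1.48, the last a call lost without mouse 232, 244, 96 or 216. With the saline difference taken off none of these passed in limma (adjusted p = 0.45 for Naip1, 0.0821 for Naip2, 0.428 for Naip3, 0.259 for Naip5, 0.194 for Nlrp9b, 0.117 for Nlrp6 and 0.0772 for Pycard). These genes were chosen after their values were seen.

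The apolipoprotein L genes moved both ways. Apol10a and Apol11a rose by 3.93 and 2.00, whereas Apol9a and Apol9b fell by 1.94 and 1.60, with mouse 232 highest in WT-Dox3 and both calls lost without it. Apol10b (0.47) did not pass.

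Some called genes had WT-Dox7 means outside the saline range. Tm4sf4, a tetraspanin-like membrane protein, had 9.46, 12.24, 9.41, 9.73 and 9.57 in WT-Dox7 and 12.40, 12.36, 12.65, 14.33 and 14.07 in WT-Dox3, with 10.60 to 12.29 in saline. Apart from mouse 102, all WT-Dox7 mice were below every saline mouse. Ggh, which trims folate chains, fell by 2.25 and the lysosomal lipase Lipa by 1.31, both to group means under the saline range. Errfi1, a feedback inhibitor of the EGF receptor, fell by 1.56 and Id2 by 0.65, with day 7 means under the range and day 3 means inside it. Ifi204 and Pappa fell by 1.5 and 1.19 and were still above the range on day 7, and Tcea3 and Fahd1 rose by 1.33 and 1.24 and were still below it.

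Plb1, a brush border phospholipase, rose by 6.84 ± 1.68 (limma adjusted p = 0.0148), a borderline call lost without mouse 232, 198 or 216, with 14.22, 8.13, 15.82, 15.72 and 15.67 in WT-Dox7 and 6.30, 5.55, 12.01, 5.11 and 6.39 in WT-Dox3. Mouse 102 was below mouse 192, and the saline mice ran from 6.56 to 15.12.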
